A study of Homo sapiens with 10 samples.

Results

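Protein tyrosine kinase 6 (PTK6, also called Brk), its relatives FRK and SRMS, and 6 proteins known as substrates of PTK6 were followed at the level of RNA in human liver cancer cell lines. The 9 genes were chosen by name as the kinase family and its known substrates, were matched to the Ensembl identifiers of the deposited tables through the GENCODE annotation, and are 9 of the 58302 genes in each table. The substrates were STAP2, KHDRBS1 (SAM68), KHDRBS2 (SLM1), KHDRBS3 (SLM2), BCAR1 (p130Cas) and ARHGAP35 (p190RhoGAP).

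PTK6, FRK and SRMS are non-receptor tyrosine kinases built from SH3, SH2 and kinase domains like the SRC kinases, and PTK6 lacks the myristoylation signal that anchors SRC at membranes. PTK6 is best known from differentiating epithelia of the gut and skin and from breast carcinoma, and its effect on cells depends on whether it sits in the nucleus or at the membrane. In the nucleus it phosphorylates RNA-binding proteins such as SAM68, and at the membrane it phosphorylates docking proteins such as p130Cas that link receptors and integrins to migration. The study asked how PTK6 and the paraspeckle protein PSPC1, another PTK6 substrate, act together in hepatocellular carcinoma cells.

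There were 10 RNA-seq libraries, 1 for each condition, so no difference below has a replicate check and none has a p-value. SK-hep1 cells, a line derived from a liver tumour, were a mock control or overexpressed PSPC1, PSPC1 with PTK6 (PSPC1/PTK6), a PSPC1 with the YF mutation (PSPC1-Y523F), or that mutant with PTK6 (PSPC1-Y523F/PTK6). Mahlavu hepatocellular carcinoma cells were a mock control or overexpressed the C-terminal part of PSPC1 (PSPC1-CT131) or the same part with a mutated nuclear localization sequence (Mut-NLS-CT131), both as fusions to EGFP. Huh-7 hepatocellular carcinoma cells were untreated or received hepatocyte growth factor (HGF, the ligand of the receptor MET) at 10 ng/ml for 48 h. The PSPC1 and PTK6 sequences came from plasmids, and a count for a gene does not separate reads of a plasmid from reads of the cell's own copy. For PSPC1 in SK-hep1 no reads of an own copy were seen in mock, which had 0 reads of this gene.

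Each library had between 15245935 and 24278662 reads on genes, and both PTK6 libraries of SK-hep1 were the deepest. Values are FPKM, fragments per kilobase of gene and 1000000 reads, as deposited, with 95% Wilson intervals from the read counts that cover counting error only. Of 8 hepatocyte markers, all reached 1 FPKM in both Huh-7 libraries, but SERPINA1 was the only such marker in each SK-hep1 and Mahlavu library, where ALB and TTR had 0 reads. None of 7 endothelial markers reached 1 FPKM in SK-hep1 or Mahlavu, while 1 did in untreated Huh-7 and 2 did with HGF. Of 5 epithelial markers, 3 reached 1 FPKM in each SK-hep1 library, 2 or 3 in each Mahlavu library and all in both Huh-7 libraries. PSPC1 had 0 reads in SK-hep1 mock and 7.01 FPKM in PSPC1, 26.4 FPKM in PSPC1/PTK6, 2.28 FPKM in PSPC1-Y523F and 70.9 FPKM in PSPC1-Y523F/PTK6. The libraries that received PTK6 thus also held more PSPC1 RNA than their partners without it, and the effects of the 2 genes in those contrasts cannot be told apart. In Mahlavu, PSPC1 had 47.3 FPKM in mock, 30.8 FPKM under the PSPC1-CT131 label and 22.5 FPKM under the Mut-NLS-CT131 label, so the counts on this gene did not rise with the C-terminal fragment.

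The window before the start of FRK is shown beside that of KHDRBS1, because their RNA levels differed the most and the least between libraries among the members with reads. The highest FPKM of FRK was 232 times its lowest, and that of KHDRBS1 1.69 times its lowest. Capitals mark the dinucleotide CG, which reads the same on both strands. The sequences are from the RefSeq promoter table (build GRCh38.p14), which held 5 of the 9 members, and each is printed on the strand of its gene up to the start of transcription or of the gene in the deposited annotation.
FRK, chr6:116060892-116061141, minus strand: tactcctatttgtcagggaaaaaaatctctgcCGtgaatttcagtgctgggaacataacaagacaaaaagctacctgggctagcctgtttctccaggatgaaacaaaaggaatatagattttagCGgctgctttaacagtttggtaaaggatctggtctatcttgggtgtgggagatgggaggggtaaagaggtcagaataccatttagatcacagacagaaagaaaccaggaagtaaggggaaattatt
KHDRBS1, chr1:32013618-32013828, plus strand: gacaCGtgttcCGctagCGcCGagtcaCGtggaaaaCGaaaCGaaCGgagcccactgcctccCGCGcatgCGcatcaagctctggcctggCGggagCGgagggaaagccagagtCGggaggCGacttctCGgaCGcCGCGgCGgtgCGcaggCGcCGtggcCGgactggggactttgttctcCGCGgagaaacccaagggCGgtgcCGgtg
The 250 bases before the RefSeq start of FRK held 2 CG and had a GC content of 41.6%. The same window of KHDRBS1, of which the first 211 bases are printed, held 34 CG and had a GC content of 68.8%. Over all 35116 promoters of the table the median was 11 CG and a GC content of 58%, with 22.9% of promoters at 2 CG or fewer and 93.2% with fewer than 34. The RefSeq start of FRK lies 133 bases from the gene end used for the deposited table, so the window is a description of the letters near that start.

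**Figure D1:**
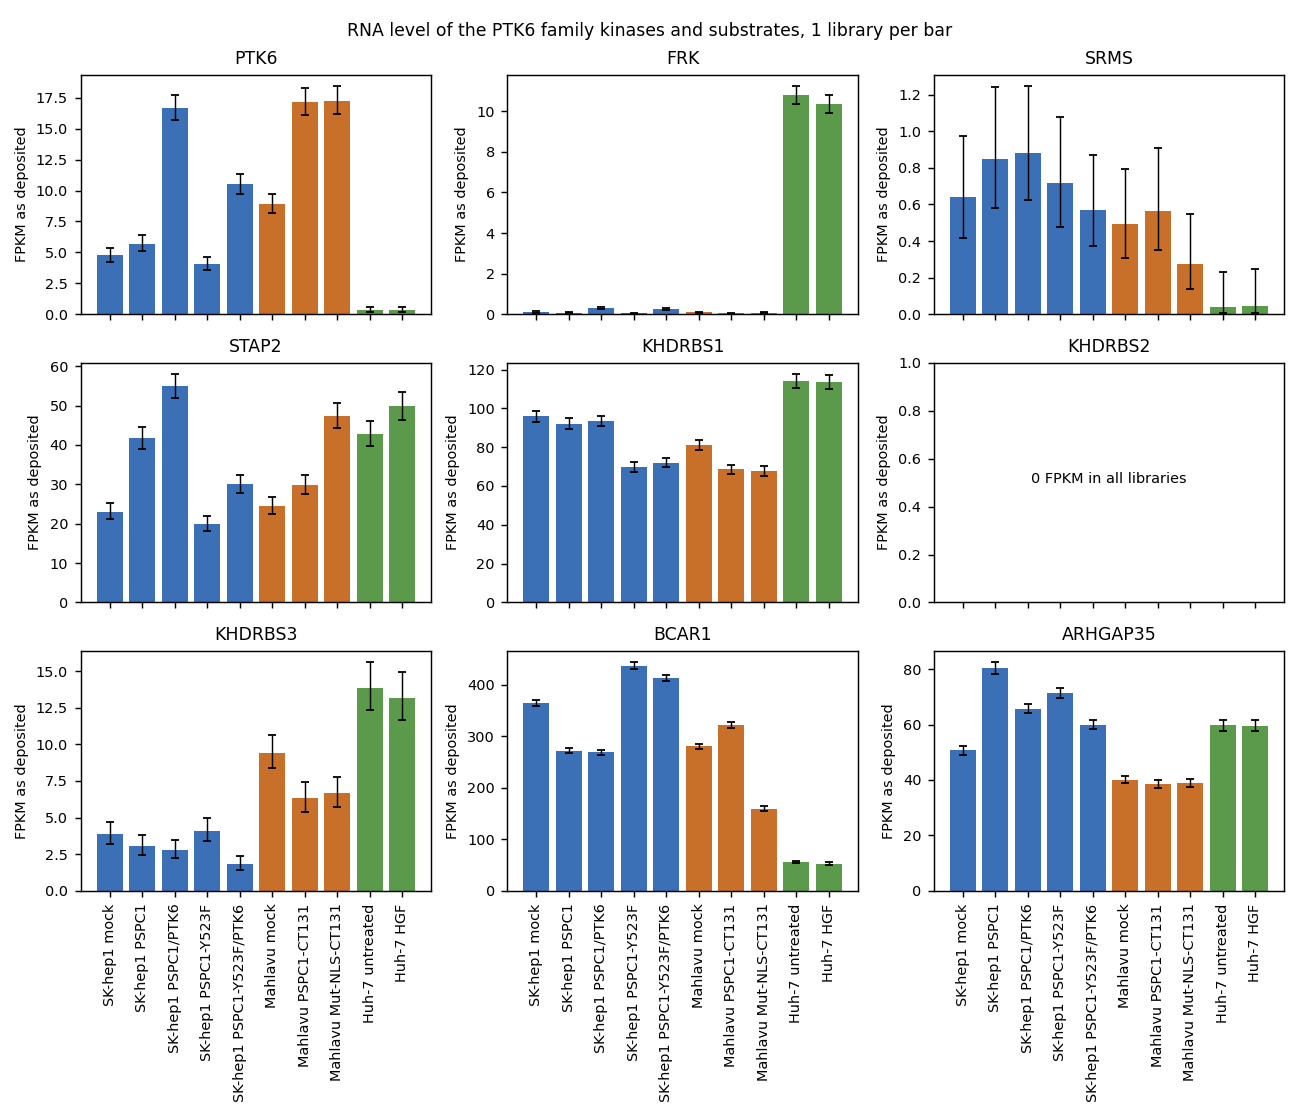
FPKM as deposited (vertical axis, from 0 in each panel) of the 9 genes in each of the 10 libraries, with SK-hep1 in blue, Mahlavu in orange and Huh-7 in green; each bar is 1 library and error bars are 95% Wilson intervals for counting error. PTK6 and FRK are high in different lines, STAP2 is highest in SK-hep1 PSPC1/PTK6 at 54.9 FPKM, and KHDRBS2 is at 0 in every library.

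The 3 kinases divided between the cell lines. PTK6 (ENSG00000101213, GRCh38 chromosome 20 from 63528001 to 63537370, minus strand) was the main family member in SK-hep1 and Mahlavu, where it made up 84.2% to 98.0% of the summed FPKM of PTK6, FRK and SRMS. In Huh-7 the main member was FRK (ENSG00000111816, chromosome 6 from 115931149 to 116060758, minus strand), with 96.6% of that sum in both libraries. FRK, also called RAK, is known from epithelial cells. SRMS (ENSG00000125508, chromosome 20 from 63540810 to 63547504, minus strand), the least studied of the 3, stayed under 1 FPKM in all 10 libraries.

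PTK6 was compared with the SK-hep1 labels, though its reads do not separate the plasmid from the cell's own gene. It had 277 reads (4.79 FPKM, 4.26 to 5.39) in mock, 307 reads (5.69 FPKM, 5.09 to 6.37) in PSPC1 and 230 reads (4.09 FPKM, 3.60 to 4.66) in PSPC1-Y523F. It had 1060 reads (16.7 FPKM, 15.7 to 17.7) in PSPC1/PTK6 and 679 reads (10.5 FPKM, 9.73 to 11.3) in PSPC1-Y523F/PTK6. In ascending order, the 3 SK-hep1 libraries without added PTK6 overlapped their neighbours, but the intervals of PSPC1-Y523F and PSPC1 did not overlap each other. Both libraries with added PTK6 lay above all 3. Even there PTK6 was of middling abundance for an expressed gene, since 51.9% of the genes at 1 FPKM or more in PSPC1/PTK6 and 43.5% in PSPC1-Y523F/PTK6 had lower FPKM. Whether few cells carried much PTK6 RNA or many carried little cannot be told apart in bulk RNA.

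Fold changes were taken as the log2 ratio of quantile-normalized FPKM plus 1 where the compared pair averaged at least 1 FPKM, and a gene was called at 2-fold or more. On this scale PTK6 rose by 1.31 in PSPC1/PTK6 and 1.06 in PSPC1-Y523F/PTK6 against mock, by 1.05 in PSPC1/PTK6 against PSPC1, and by 1.12 in PSPC1-Y523F/PTK6 against PSPC1-Y523F. The ratios of deposited FPKM, with exact 95% intervals for counting error, were 3.47 (3.04 to 3.98), 2.19 (1.90 to 2.53), 2.92 (2.57 to 3.33) and 2.56 (2.20 to 2.99). The call in PSPC1-Y523F/PTK6 against mock ended when FPKM plus 1 were used without quantile normalization (0.99) and when GC content and length were taken out (0.94). In PSPC1 and PSPC1-Y523F against mock PTK6 had log2 values of 0.26 and -0.06.

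In Mahlavu, where no PTK6 was added, PTK6 had 541 reads (8.95 FPKM, 8.22 to 9.73) in mock, 906 reads (17.2 FPKM, 16.1 to 18.3) under the PSPC1-CT131 label and 879 reads (17.3 FPKM, 16.2 to 18.5) under the Mut-NLS-CT131 label. Both fragment libraries lay above mock with no overlap of its interval, and their own intervals overlapped each other. Their intervals also overlapped that of SK-hep1 PSPC1/PTK6, the highest SK-hep1 library, which carried a PTK6 plasmid. On the quantile-normalized scale PTK6 rose by 1.27 with PSPC1-CT131 and 1.06 with Mut-NLS-CT131. The ratios of deposited FPKM were 1.92 (1.72 to 2.14) and 1.93 (1.73 to 2.15), and on deposited FPKM plus 1 the log2 values of 0.87 and 0.88 were not called. The deposited values therefore differ from mock by more than counting error but stand at the 2-fold threshold, on either side of it by scale. In the PSPC1-CT131 contrast log2 fold changes over all genes went with the GC content of the gene (Spearman's rho of 0.57, against -0.10 with Mut-NLS-CT131). PTK6 transcripts had 57.5% GC, and with GC content and length taken out the PTK6 values were 1.01 and 1.11. With a pseudocount of 5 in place of 1, the PTK6 values lay between 0.75 and 0.94 in these 2 contrasts and the 4 of SK-hep1 with added PTK6, and none was called.

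In Huh-7, PTK6 had 15 reads (0.344 FPKM, 0.208 to 0.567) untreated and 13 reads (0.320 FPKM, 0.187 to 0.547) with HGF. The ratio of 0.931 had an interval from 0.408 to 2.10, which spans a change of 2-fold in either direction. In ascending order of PTK6 came Huh-7, SK-hep1 without added PTK6 (4.09 to 5.69 FPKM) and Mahlavu (8.95 to 17.3 FPKM). How many of all genes separate these libraries was not counted, so the order describes PTK6 alone and carries no weight. Over all 5 SK-hep1 libraries, PTK6 overlapped Mahlavu.

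FRK had few reads in SK-hep1, but they were not spread evenly. It had 30 reads (0.105 FPKM, 0.0733 to 0.149) in mock, 18 reads (0.0673 FPKM, 0.0426 to 0.106) in PSPC1 and 13 reads (0.0466 FPKM, 0.0272 to 0.0797) in PSPC1-Y523F. It had 92 reads (0.291 FPKM, 0.238 to 0.357) in PSPC1/PTK6 and 76 reads (0.237 FPKM, 0.189 to 0.296) in PSPC1-Y523F/PTK6. Both libraries with added PTK6 lay above the 3 others with no overlap of intervals. How many of all genes split the libraries in the same way was not counted, so the split describes FRK alone. The FPKM ratio was 4.33 (2.59 to 7.63) for PSPC1/PTK6 against PSPC1 and 5.08 (2.80 to 9.97) for PSPC1-Y523F/PTK6 against PSPC1-Y523F. These levels were under the 1 FPKM filter, so FRK was not called, and added PTK6, the level of PSPC1 and depth cannot be told apart here. Beside it, the summed FPKM of the hepatocyte markers, nearly all from SERPINA1, was 42.3 and 30.4 in the PTK6 libraries against 16.3 to 22.3 in the others. Of the 8 markers, 6 were at 0 in each SK-hep1 library, so the sum stands for SERPINA1 and not for the marker set. Its part in the FRK values was not tested.

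In Mahlavu, FRK had 26 reads (0.0866 FPKM) in mock, 13 reads (0.0496 FPKM) under the PSPC1-CT131 label and 19 reads (0.0752 FPKM) under the Mut-NLS-CT131 label, with overlapping intervals. In Huh-7 it had 2340 reads (10.8 FPKM, 10.4 to 11.2) untreated and 2091 reads (10.4 FPKM, 9.93 to 10.8) with HGF. Both Huh-7 libraries were far above the other 8, and they differed from each other by a log2 value of -0.05.

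SRMS had between 21 and 32 reads in SK-hep1, from 0.571 FPKM (0.373 to 0.872) in PSPC1-Y523F/PTK6 to 0.884 FPKM (0.626 to 1.25) in PSPC1/PTK6. In Mahlavu it had 17 reads in mock, 17 under the PSPC1-CT131 label and 8 under the Mut-NLS-CT131 label (0.494, 0.566 and 0.276 FPKM). In each Huh-7 library it had 1 read. The SK-hep1 intervals overlapped throughout, and SRMS passed the filter only in PSPC1 against mock, with a log2 value of 0.14. SRMS and PTK6 are neighbours on the same strand, 3439 bases apart. In SK-hep1 without added PTK6, PTK6 had 5.69 to 7.50 times the FPKM of SRMS. It had 18.8 and 18.4 times in PSPC1/PTK6 and PSPC1-Y523F/PTK6, which received PTK6, and 18.1 to 62.5 times in Mahlavu.

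**Figure D2:**
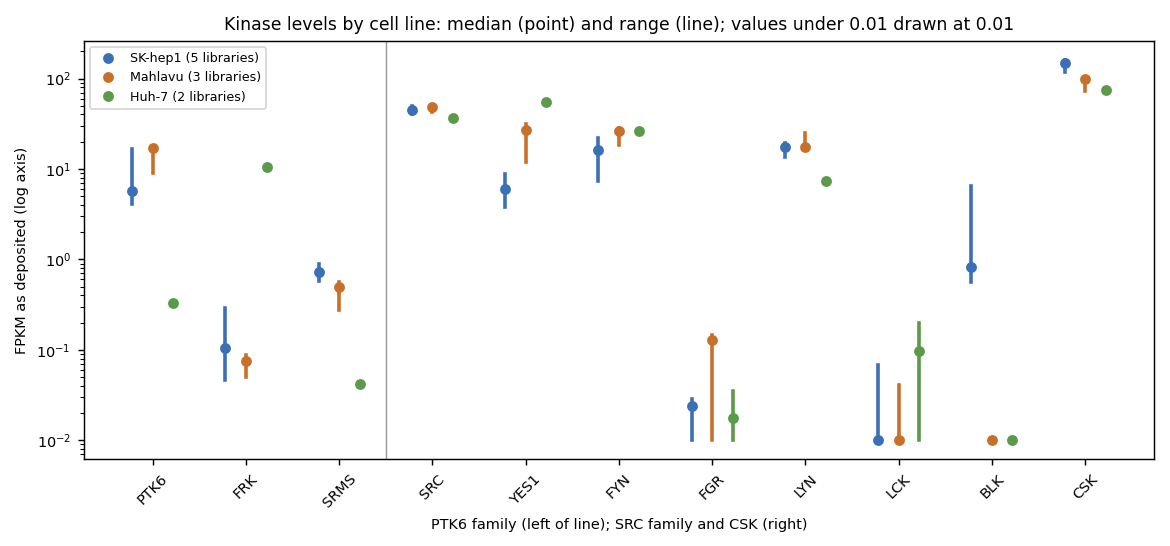
FPKM as deposited (log axis) of PTK6, FRK and SRMS and of the SRC family and CSK by cell line, with a point at the median and a line over the range of the 5 SK-hep1, 3 Mahlavu and 2 Huh-7 libraries. FRK and PTK6 change places between Huh-7 and the other lines, while SRC lies between 36.2 and 49.1 FPKM in all 10 libraries.

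The wider kinase family gave these levels a scale. SRC, the founding member, ranged from 36.2 to 49.1 FPKM over the 10 libraries and was 2.81 to 9.87 times PTK6 in SK-hep1 and Mahlavu. CSK, the kinase that holds SRC inactive, ranged from 72.9 to 161 FPKM. YES1 was lowest in SK-hep1 (3.81 to 8.75 FPKM), higher in Mahlavu (11.8 to 31.3 FPKM) and highest in Huh-7 (52.7 and 57.3 FPKM). FGR and LCK averaged under 1 FPKM in every contrast.

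STAP2 (ENSG00000178078, chromosome 19 from 4324043 to 4342786, minus strand), an adaptor protein with PH and SH2-like domains that binds PTK6 and STAT3, had the largest differences among the substrates in SK-hep1. It had 484 reads (23.1 FPKM, 21.1 to 25.2) in mock, 816 reads (41.7 FPKM, 38.9 to 44.6) in PSPC1 and 1268 reads (54.9 FPKM, 51.9 to 58.0) in PSPC1/PTK6. It had 409 reads (20.0 FPKM, 18.2 to 22.1) in PSPC1-Y523F and 706 reads (30.0 FPKM, 27.9 to 32.3) in PSPC1-Y523F/PTK6. In ascending order, PSPC1-Y523F and mock overlapped, and PSPC1-Y523F/PTK6, PSPC1 and PSPC1/PTK6 followed as separate steps. STAP2 rose by a log2 value of 1.11 in PSPC1/PTK6 against mock, and its values were 0.83 in PSPC1, -0.12 in PSPC1-Y523F and 0.45 in PSPC1-Y523F/PTK6 against the same mock. Set against the partner without PTK6, it had 0.28 in PSPC1/PTK6 (FPKM ratio 1.32, 1.20 to 1.44) and 0.57 in PSPC1-Y523F/PTK6 (1.50, 1.33 to 1.70).

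In Mahlavu, STAP2 had 24.5 FPKM (22.6 to 26.7) in mock, 29.8 FPKM (27.4 to 32.3) under the PSPC1-CT131 label and 47.4 FPKM (44.4 to 50.7) under the Mut-NLS-CT131 label. The Mut-NLS-CT131 library was the high one. STAP2 rose there by a log2 value of 1.07 on the quantile-normalized scale, which was 0.92 and not called on deposited FPKM plus 1, and had 0.55 with PSPC1-CT131. In Huh-7 it had 42.8 FPKM (39.7 to 46.2) untreated and 49.8 FPKM (46.3 to 53.5) with HGF, a log2 value of 0.22.

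The 3 KHDRBS genes encode STAR proteins, RNA-binding proteins that PTK6 phosphorylates in the nucleus and that act in splicing. KHDRBS1 (ENSG00000121774, chromosome 1 from 32013829 to 32060850, plus strand) was abundant in every library. It had 95.9, 92.0 and 93.4 FPKM in mock, PSPC1 and PSPC1/PTK6, and 69.7 and 72.0 FPKM in PSPC1-Y523F and PSPC1-Y523F/PTK6. Both mutant libraries were lower than the other 3, with log2 values of -0.43 and -0.36 against mock that were not called, while adding PTK6 gave 0.00 and 0.08. In Mahlavu it had 81.0 FPKM in mock and 68.5 and 67.5 FPKM under the PSPC1-CT131 and Mut-NLS-CT131 labels, and in Huh-7 it had 114 FPKM in each library.

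KHDRBS3 (ENSG00000131773, chromosome 8 from 135457457 to 135656722, plus strand) was much less abundant and lowest in SK-hep1 PSPC1-Y523F/PTK6. In SK-hep1 it had 103 reads (3.87 FPKM, 3.19 to 4.69) in mock, 76 reads (3.06 FPKM, 2.45 to 3.83) in PSPC1 and 82 reads (2.80 FPKM, 2.25 to 3.47) in PSPC1/PTK6. It had 106 reads (4.09 FPKM, 3.38 to 4.95) in PSPC1-Y523F and 55 reads (1.84 FPKM, 1.42 to 2.40) in PSPC1-Y523F/PTK6. The PSPC1-Y523F/PTK6 library was low, clear of PSPC1, mock and PSPC1-Y523F but overlapping PSPC1/PTK6, and the 4 others overlapped their neighbours in order. Against PSPC1-Y523F its FPKM ratio was 0.451 (0.319 to 0.630) and its log2 value -0.85 was under the threshold, but it was called with a pseudocount of 0.1 (-1.06) and on TMM-scaled counts (-1.02). For PSPC1/PTK6 against PSPC1 the log2 value was -0.47, or -0.10 on deposited FPKM plus 1, and the FPKM ratio was 0.914 with an interval from 0.661 to 1.27. Against mock, both libraries with PTK6 had nearly the same log2 value, -0.69 in PSPC1/PTK6 and -0.68 in PSPC1-Y523F/PTK6, and neither was called.

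Mahlavu held more KHDRBS3 than SK-hep1, at 9.44 FPKM (8.37 to 10.7) in mock and 6.33 FPKM (5.41 to 7.41) and 6.66 FPKM (5.69 to 7.79) under the PSPC1-CT131 and Mut-NLS-CT131 labels. The log2 values against mock were -0.14, which became 0.32 with GC content and length taken out, and -0.33. Huh-7 held the most, at 13.9 FPKM untreated and 13.2 FPKM with HGF. KHDRBS1 exceeded KHDRBS3 17.0 to 39.0 times in FPKM in SK-hep1 and 8.22 to 10.8 times in Mahlavu and Huh-7. KHDRBS2 (ENSG00000112232, chromosome 6 from 61679960 to 62286227, minus strand), a STAR protein best known from neurons, had 0 reads in each of the 8 counted libraries and was listed at 0 FPKM in both Huh-7 libraries. A count of 0 allows up to 3 reads in a library.

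BCAR1 (ENSG00000050820, chromosome 16 from 75228187 to 75268053, minus strand), the docking protein p130Cas of focal adhesions, was the most abundant member in SK-hep1 and Mahlavu. It had 365 FPKM (359 to 371) in mock, 272 FPKM (267 to 277) in PSPC1 and 269 FPKM (264 to 274) in PSPC1/PTK6, but 437 FPKM (431 to 444) in PSPC1-Y523F and 414 FPKM (408 to 419) in PSPC1-Y523F/PTK6. The libraries with unmutated PSPC1 thus lay below mock and those with the mutant above it, with or without PTK6. The log2 values against mock were -0.38, -0.33, 0.24 and 0.22, none of them called, and with GC content and length taken out the value of PSPC1-Y523F/PTK6 was -0.02. Adding PTK6 gave 0.06 and -0.03, values whose sign changed on TMM-scaled counts (-0.23 and 0.04).

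In Mahlavu, BCAR1 had 281 FPKM (276 to 286) in mock, 321 FPKM (316 to 327) under the PSPC1-CT131 label and 160 FPKM (156 to 164) under the Mut-NLS-CT131 label. With PSPC1-CT131 the log2 value of 0.14 became -0.25 once GC content and length were taken out. The Mut-NLS-CT131 library was low, with an FPKM ratio of 0.568 (0.551 to 0.586) and a log2 value of -0.93, just short of the call, and 3.90% of all genes tested there had lower values. In Huh-7 BCAR1 was at 55.7 and 52.3 FPKM, below every SK-hep1 and Mahlavu library.

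ARHGAP35 (ENSG00000160007, chromosome 19 from 46918676 to 47005077, plus strand), which encodes the RHOA-inactivating protein p190RhoGAP, had 50.6 FPKM (49.1 to 52.3) in SK-hep1 mock and 80.3 FPKM (78.3 to 82.4) in PSPC1. It had 65.8 FPKM (64.1 to 67.5) in PSPC1/PTK6, 71.3 FPKM (69.4 to 73.3) in PSPC1-Y523F and 60.0 FPKM (58.4 to 61.6) in PSPC1-Y523F/PTK6. Mock was the lowest SK-hep1 library, and each library with PTK6 was below its partner without it, with log2 values of -0.37 and -0.19. It was steady in the other lines, at 40.1, 38.6 and 38.7 FPKM in the 3 Mahlavu libraries and 59.8 and 59.5 FPKM in both Huh-7 libraries.

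Read over the 9 contrasts, few members passed 2-fold. In SK-hep1, none of 7 members tested was called in PSPC1 against mock, where 5.58% of all genes were called, and none of 6 in PSPC1-Y523F, where 5.29% were. In PSPC1/PTK6 against mock 2 of 6 were called, PTK6 and STAP2, beside 8.41% of all genes, and in PSPC1-Y523F/PTK6 1 of 6, PTK6, beside 5.03%. PTK6 was also the only one of 6 called when PTK6 was added to PSPC1 (4.96% of all genes) and to PSPC1-Y523F (5.98%). Since PTK6 was supplied in those 4 contrasts, STAP2 in PSPC1/PTK6 was the only call in SK-hep1 on a member that was not introduced.

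In Mahlavu, 1 of 6 members was called with PSPC1-CT131, PTK6, beside 6.33% of all genes, and 2 of 6 with Mut-NLS-CT131, PTK6 and STAP2, beside 6.42%. None of 6 was called with HGF in Huh-7, where 0.82% of all genes were. The median log2 value of the members tested lay between -0.13 and 0.26 over the 9 contrasts, against -0.04 to 0.01 for all genes. The 4 contrasts against SK-hep1 mock share that library, as both Mahlavu contrasts share theirs, so their values are not independent of each other.

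Within a line, PTK6 and STAP2 varied more than most genes. The log2 range of PTK6 over the 5 SK-hep1 libraries was 1.37, above that of 89.3% of the 12449 genes at a mean of 1 FPKM or more. This range includes the libraries that received PTK6, so it follows from the design and carries no weight. In the others the quantile-normalized FPKM of PTK6 was 5.67 (mock), 6.98 (PSPC1) and 5.39 (PSPC1-Y523F). Over the 3 Mahlavu libraries, where no PTK6 was added, its range was 1.27, above 93.3% of genes. STAP2 had ranges of 1.22 and 1.07 (above 85.9% and 87.6% of genes). KHDRBS1 varied less than most, with ranges of 0.43 and 0.26 (above 21.5% and 15.1%), and ARHGAP35 had the smallest range in Mahlavu, 0.13 (above 4.03%). The median gene had ranges of 0.66 and 0.56.

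Between lines, the deposited FPKM of 2 of 6 members did not overlap between SK-hep1 and Mahlavu, KHDRBS3 (higher in Mahlavu) and ARHGAP35 (higher in SK-hep1), against 47.4% of all genes tested. PTK6 and BCAR1 were lower and FRK, KHDRBS1 and KHDRBS3 higher in both Huh-7 libraries than in any library of either other line. Such separation was common, since 77.6% of all genes tested did not overlap between SK-hep1 and Huh-7 and 76.9% between Mahlavu and Huh-7. PTK6 and FRK passed the filter in these pairs only through the line in which each was high, so for them it carries no weight. The differences were present in untreated Huh-7 and with HGF alike, and the members tested differed between those 2 libraries by a log2 value of at most 0.22. The Huh-7 tables came without counts, and line and deposit cannot be told apart in these differences.

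Other genes of the PTK6 pathway were read in 7 lists. Setting PSPC1 aside, the calls over all lists were 2 of 36 genes tested in PSPC1 against mock, beside 5.58% of all genes, and 3 of 36 each in PSPC1/PTK6 (8.41%), in PSPC1-Y523F (5.29%) and with PTK6 beside the mutant (5.03%). They were 0 of 35 when PTK6 was added to PSPC1 (4.96%), 2 of 35 when it was added to PSPC1-Y523F (5.98%), 0 of 34 with PSPC1-CT131 (6.33%), 1 of 34 with Mut-NLS-CT131 (6.42%) and 0 of 34 with HGF (0.82%). These shares are near those of all genes, so the calls named below are values of single genes and not a result about a list. Of 9 cytoplasmic and membrane substrates, 8 were tested, and the only call was paxillin (PXN), a focal adhesion protein, which fell by a log2 value of 1.15 in PSPC1/PTK6 against mock. PXN had 339 FPKM in mock, 159 FPKM with PSPC1 and 145 FPKM after adding PTK6 to it, and 231 FPKM with PSPC1-Y523F and 230 FPKM after adding PTK6 to that, so mock was the highest of the 5. The median of the 8 lay between -0.08 and 0.16 over the 9 contrasts. STAT3, STAT5B, AKT1, PTK2, DOK1, CBL and ARAP1 were not called in any contrast.

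Among the 4 nuclear substrates, PSPC1 was called in every SK-hep1 contrast, where it was supplied. Under the Mut-NLS-CT131 label PSPC1 fell by 1.06 and its partner SFPQ, a paraspeckle protein that PTK6 also phosphorylates, fell by 1.14 from 244 to 121 FPKM. CTNNB1 (beta-catenin) and CDC73 (parafibromin) were not called, and CTNNB1 ranged from 140 to 174 FPKM in SK-hep1, 90.6 to 113 in Mahlavu and 410 to 438 in Huh-7.

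Of 5 receptors known to act upstream of PTK6, IGF1R rose by 1.13 in PSPC1-Y523F against mock (24.1 to 55.0 FPKM). It was above mock in the other SK-hep1 libraries too, at 44.7 FPKM in PSPC1, 45.4 FPKM in PSPC1/PTK6 and 33.1 FPKM in PSPC1-Y523F/PTK6 (log2 values of 0.87, 0.77 and 0.52), so mock was the low library. ERBB3, which pairs with ERBB2, rose by 1.06 in PSPC1-Y523F/PTK6 against mock and by 1.50 against PSPC1-Y523F. ERBB3 had 12.7 FPKM in mock, 23.4 and 24.0 FPKM with PSPC1 alone and with PTK6, and 8.23 and 26.2 FPKM with PSPC1-Y523F alone and with PTK6, so PSPC1-Y523F was the low library. In Huh-7 it had 222 and 217 FPKM, and in Mahlavu at most 0.383 FPKM. EGFR, ERBB2 and MET were not called, nor were the phosphatase PTPN1 and the inhibitor SOCS3 of the list of PTK6 regulators.

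In the SRC family, FYN rose by 1.17 in PSPC1-Y523F/PTK6 against PSPC1-Y523F (7.37 to 18.3 FPKM). It had 16.1 FPKM in mock, 13.2 FPKM in PSPC1 and 21.9 FPKM in PSPC1/PTK6, so PSPC1-Y523F was the low library, and the log2 value of PSPC1-Y523F/PTK6 against mock was 0.28. BLK, a kinase of B lymphocytes, fell in all 4 contrasts against SK-hep1 mock, from 212 reads (6.53 FPKM) to between 17 and 78 reads, with log2 values from -2.30 to -1.53. ELMO1, which works with DOCK1 downstream of p130Cas to activate RAC1, did the same, from 146 reads (4.99 FPKM) in mock to 0, 0, 1 and 0 reads. ELMO1 passed the 1 FPKM filter in these contrasts through mock alone, as did BLK in PSPC1 and in PSPC1-Y523F/PTK6. The 4 contrasts share 1 mock library, which is also the only SK-hep1 library without PSPC1 or its mutant, so PSPC1 and the mock library cannot be told apart here. The contrasts in which PTK6 was added to PSPC1 or PSPC1-Y523F do not use it. No other partner of p130Cas or p190RhoGAP was called, and neither was QKI or SF1, the 2 other STAR proteins.

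Around PTK6, the 5 genes with reads on each side were followed on chromosome 20. With PTK6 added to PSPC1, 1 of 6 neighbours tested was called, HELZ2, a coactivator with helicase domains, which rose by 1.12 (64.0 to 146 FPKM, against 91.6 FPKM in mock). With PTK6 added to PSPC1-Y523F none of 6 was called, and at the 4.96% and 5.98% of all genes called in these contrasts so few neighbours say nothing about the region. FNDC11, which lies beside SRMS on the opposite strand, rose by 1.34 in PSPC1, 1.57 in PSPC1/PTK6 and 1.32 in PSPC1-Y523F/PTK6 against mock, where it had 0.123 FPKM against 1.62, 2.85 and 1.43. It passed the 1 FPKM filter there only through the library in which it was high, so these calls carry no weight. In each of these contrasts it was the 1 call among 6 neighbours tested, beside 5.58%, 8.41% and 5.03% of all genes. In Mahlavu, where PTK6 was higher without a PTK6 plasmid, none of 5 neighbours was called with either fragment, beside 6.33% and 6.42% of all genes. There EEF1A2 had log2 values of 0.73 and 0.33, PPDPF 0.41 and -0.25, and HELZ2 -0.88 and -0.69.

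The genes whose levels ran most like PTK6 over the 8 SK-hep1 and Mahlavu libraries, by Pearson's correlation of log2 quantile-normalized FPKM plus 1 among 12902 genes, were S100A11 (r = 0.96), A4GALT (0.93) and AC009549.1 (0.91). S100A11, a calcium-binding protein, ranged from 537 to 891 FPKM, and A4GALT, a glycosyltransferase, from 13.6 to 48.3 FPKM. AC009549.1 went from 1 read to 7.46 FPKM. These are the top of 12902 correlations over 8 libraries that include both cell lines, and they describe these libraries only. FRK and SRMS averaged under 1 FPKM over the 8 libraries and were not compared in this way.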

How the data were processed

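RNA was extracted with TRIzol and libraries were made with an NEBNext Ultra kit that does not mark strand; the labels give selection of RNA on poly-T beads, the methods depletion of rRNA. The submitters' processing notes name TopHat2 2.0, HTSeq 0.6.1, edgeR and GRCh38.p12. The authors deposited, per gene, raw read counts and FPKM for the SK-hep1 and Mahlavu libraries and FPKM alone for Huh-7. Whole reads were recovered for Huh-7 from FPKM and gene lengths (100% of values within 0.01 reads), where another library gave a length.

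FPKM were quantile normalized over the 8 SK-hep1 and Mahlavu libraries and over the 2 Huh-7 libraries. Log2 fold changes used a pseudocount of 1, a mean of at least 1 FPKM and a threshold of 2-fold. With 1 library per condition no test was run. Intervals (Wilson for levels, exact for ratios, 95%) cover counting error only. The scripts were tested on simulated data and used Python 3.11.15, scipy 1.17.1 and edgeR 4.0.16 (TMM scaling only).

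The 9 members and the pathway, marker, neighbour and likeness rules were chosen with earlier results of these data known. All members were named, pathway genes were described by list with those past 2-fold named (some listed genes are not reported here), and the 5 genes on each side of PTK6 and SRMS and the 3 genes most like PTK6 were taken. Annotated genes that overlap a member had at most 53 reads. Symbols were matched for 58039 of the 58302 genes through GENCODE.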

Additional observations from a re-analysis of the deposited data

How the results depend on the processing

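Member counts and log2 fold changes were recomputed with pseudocounts of 0.1 and 5, on FPKM as deposited or scaled to a sum of 1000000, with quantile normalization within each line, with no filter or a mean of at least 5 FPKM, on TMM-scaled counts, and with GC content and length taken out. Of 474 member log2 fold changes under an alternative, 453 kept the sign, 85 moved by more than counting error, and 0 of those called reversed. Of 79 member counts, 65 stayed within 1.5 times. With a pseudocount of 5 the count went from 2 to 1 in PSPC1/PTK6 against mock and to 0 in PSPC1-Y523F/PTK6 against mock, PTK6 added to PSPC1, PTK6 added to PSPC1-Y523F, PSPC1-CT131 and Mut-NLS-CT131, as a larger pseudocount shrinks the fold changes of PTK6 at these levels. PSPC1-Y523F/PTK6 against mock also went to 0 on deposited FPKM and with GC content and length taken out, and PSPC1-CT131 and Mut-NLS-CT131 went to 0 on deposited and on scaled FPKM; the cause was not tested. PTK6 added to PSPC1-Y523F went from 1 to 2, with KHDRBS3, at a pseudocount of 0.1 and on TMM-scaled counts.

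Over all genes, the number past 2-fold was 692 in PSPC1 against mock (261 to 1240 over the alternatives), 1046 in PSPC1/PTK6 (451 to 1701), 655 in PSPC1-Y523F (214 to 1261) and 624 in PSPC1-Y523F/PTK6 (247 to 1066). It was 615 for PTK6 added to PSPC1 (271 to 1008), 742 for PTK6 added to PSPC1-Y523F (269 to 1388), 786 with PSPC1-CT131 (313 to 1479), 798 with Mut-NLS-CT131 (314 to 1284) and 117 with HGF (7 to 302). No paired analysis was possible because each condition had 1 library, and for the same reason no library could be left out. Depth limits SRMS in all libraries, FRK in SK-hep1 and Mahlavu, and PTK6 in Huh-7, each of which rested on at most 92 reads.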
